A study of Drosophila melanogaster with 3 samples.

Results

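The Cpr genes are the cuticle protein genes of Drosophila melanogaster whose symbols carry Cpr and a cytological number. They were chosen by symbol alone, as every row starting with Cpr and a digit, which gave 69 of the 13990 genes listed in each of the 2 deposited tables. RNA was measured in 3 libraries, 1 for each genotype. The control library is labelled Act (Act>control, the Actin5C-Gal4 driver with no hairpin in its label), and the RNAi library, labelled Act-Aac11-IR (Act>Aac11-RNAi), adds a UAS hairpin against Aac11. Actin5C-Gal4 drives expression in most tissues. The Yki library is the one labelled enGFP+Yki+Aac11-IR, which names engrailed-GFP, Yorkie and the same hairpin, and no library with its other transgenes but no hairpin was analysed here. Per the labels' protocols all genotypes were raised at 25 degrees Celsius, and wandering larvae were sorted for GFP and ground whole, with 10 to 20 animals for each Act genotype pooled within genotype. The source label reads wing disc cells for every sample, so the tissue is described in conflicting ways. The study asked how loss of Aac11, the fly ortholog of API5, changes RNA in larvae. With 1 library per genotype no difference below has a replicate check, and no p-value or standard deviation can be given.

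Insect cuticle is a layered extracellular sheet of chitin fibres in a matrix of proteins, secreted by the epidermis and by other ectodermal linings such as the tracheae. Most cuticle proteins carry the Rebers and Riddiford domain, which binds chitin, and the Cpr genes are the largest group of fly genes named for that domain. Different members are made for larval, pupal and adult cuticle, and pulses of the moulting hormone ecdysone set when each is switched on. Wandering larvae stand just before pupariation, when larval cuticle becomes the puparium and pupal cuticle follows. Few single members have an established function of their own. Cpr66D and Cpr72Ec are known as components of the corneal lens of the adult eye. Other genes with the same domain keep older names, such as Lcp, Ccp84A and Edg, and are not members by symbol.

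The family is compact and clustered. In the Ensembl annotation of the Release 6 genome, which shares coordinates with dm6, 34 members lie on chromosome arm 3L, 21 on 2R, 5 on 2L, 5 on 3R and 4 on X. The median transcript is 852 nt, compared with 1638 nt over all genes matched, and the median encoded protein has 180 amino acids. The proteins range from 93 residues (Cpr60D) to 1231 residues (Cpr76Bd). A 2-exon structure is the most common, in 40 members, and 52 members have 1 annotated transcript. The 69 symbols carry 26 cytological numbers, of which 9 hold 3 or more members and together 46 of the genes.

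Depth differed between the libraries and sets how far low values can be read. FPKM, fragments per kilobase of transcript scaled to library size, moves in steps of 1 fragment, and these steps gave depths of 6030000 fragments (control), 31270000 (RNAi) and 17710000 (Yki). For a transcript of 1 kilobase, 3 fragments correspond to 0.622 FPKM in Act, 0.12 FPKM in Act-Aac11-IR and 0.212 FPKM in the Yki library. Aac11 itself stood at 150 FPKM in Act and 78.1 FPKM in Act-Aac11-IR, and the separately normalized Yki table gives it 117 FPKM. Wing disc markers had a median of 15.6, 19.2 and 46.7 FPKM in the control, RNAi and Yki columns. Fat body markers had medians of 983, 771 and 3.58 FPKM, so fat body RNA was present in the Act libraries. Summed over 10 testis markers, the level was 2475 FPKM in Act, 663 FPKM in Act-Aac11-IR and 11.2 FPKM in the Yki library, where can, aly and Mst98Cb were listed at 0. Markers of the tracheae, which also secrete cuticle, had medians of 9.34, 27.3 and 70.5 FPKM, and their sums were 66.0, 141 and 414 FPKM. These 4 markers were trh, btl, serp and verm. Both serp and verm are also in the list of chitin genes below, so the 2 lists are not independent. Only serp, 1 of 4, was counted as 2-fold higher in the RNAi library than in the control. Midgut markers had medians of 1.56 and 8.44 FPKM in the Act libraries, with 3 of 4 higher, and the Yki table has LysB, LysD and LysE at 0. Over all genes 3.31% were higher. Salivary gland markers were low throughout, with medians of 0, 0.516 and 1.07 FPKM in the control, RNAi and Yki columns. In the control 4 of 6 were listed at 0. Whether these values match the stated stage and the grinding of whole larvae was not tested. Muscle markers had medians of 82.4, 46.9 and 0.987 FPKM in the same order. Lists for hemocytes and neurons were also measured, and their values are not given here. The part of tissue makeup in the Cpr values was not tested.

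Cpr levels ran from 0 to 4355 FPKM over the Act libraries, and 42 of the 69 members reached 1 FPKM in at least 1 Act library. In the control 23 members were listed at 0, 10 lay above 0 and under 1 FPKM, 18 between 1 and 10, 13 between 10 and 100, and 5 at 100 FPKM or more. In the RNAi library 5 were listed at 0, 31 lay above 0 and under 1 FPKM, and 8 reached 100 FPKM. In the Yki library 30 were listed at 0, 22 lay above 0 and under 1 FPKM, and 2 reached 100 FPKM. The family medians, 1.01 FPKM (control), 0.84 FPKM (RNAi) and 0.121 FPKM (Yki), compare with 15.4, 12.7 and 3.52 FPKM over all genes. Listed at 0 were 33.3%, 7.25% and 43.5% of members in these libraries, beside 11.2%, 6.64% and 24.7% of all genes. Under 1 FPKM in all 3 libraries were 27 members, and 4 of these (Cpr5C, Cpr23B, Cpr49Ad and Cpr65Ax2) were listed at 0 throughout. Cpr65Ax1, named as a neighbouring copy of Cpr65Ax2, was not analysed here, and reads shared between near-identical copies make the values of Cpr65Ax2, Cpr67Fa1 and Cpr67Fa2 uncertain.

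**Figure D1:**
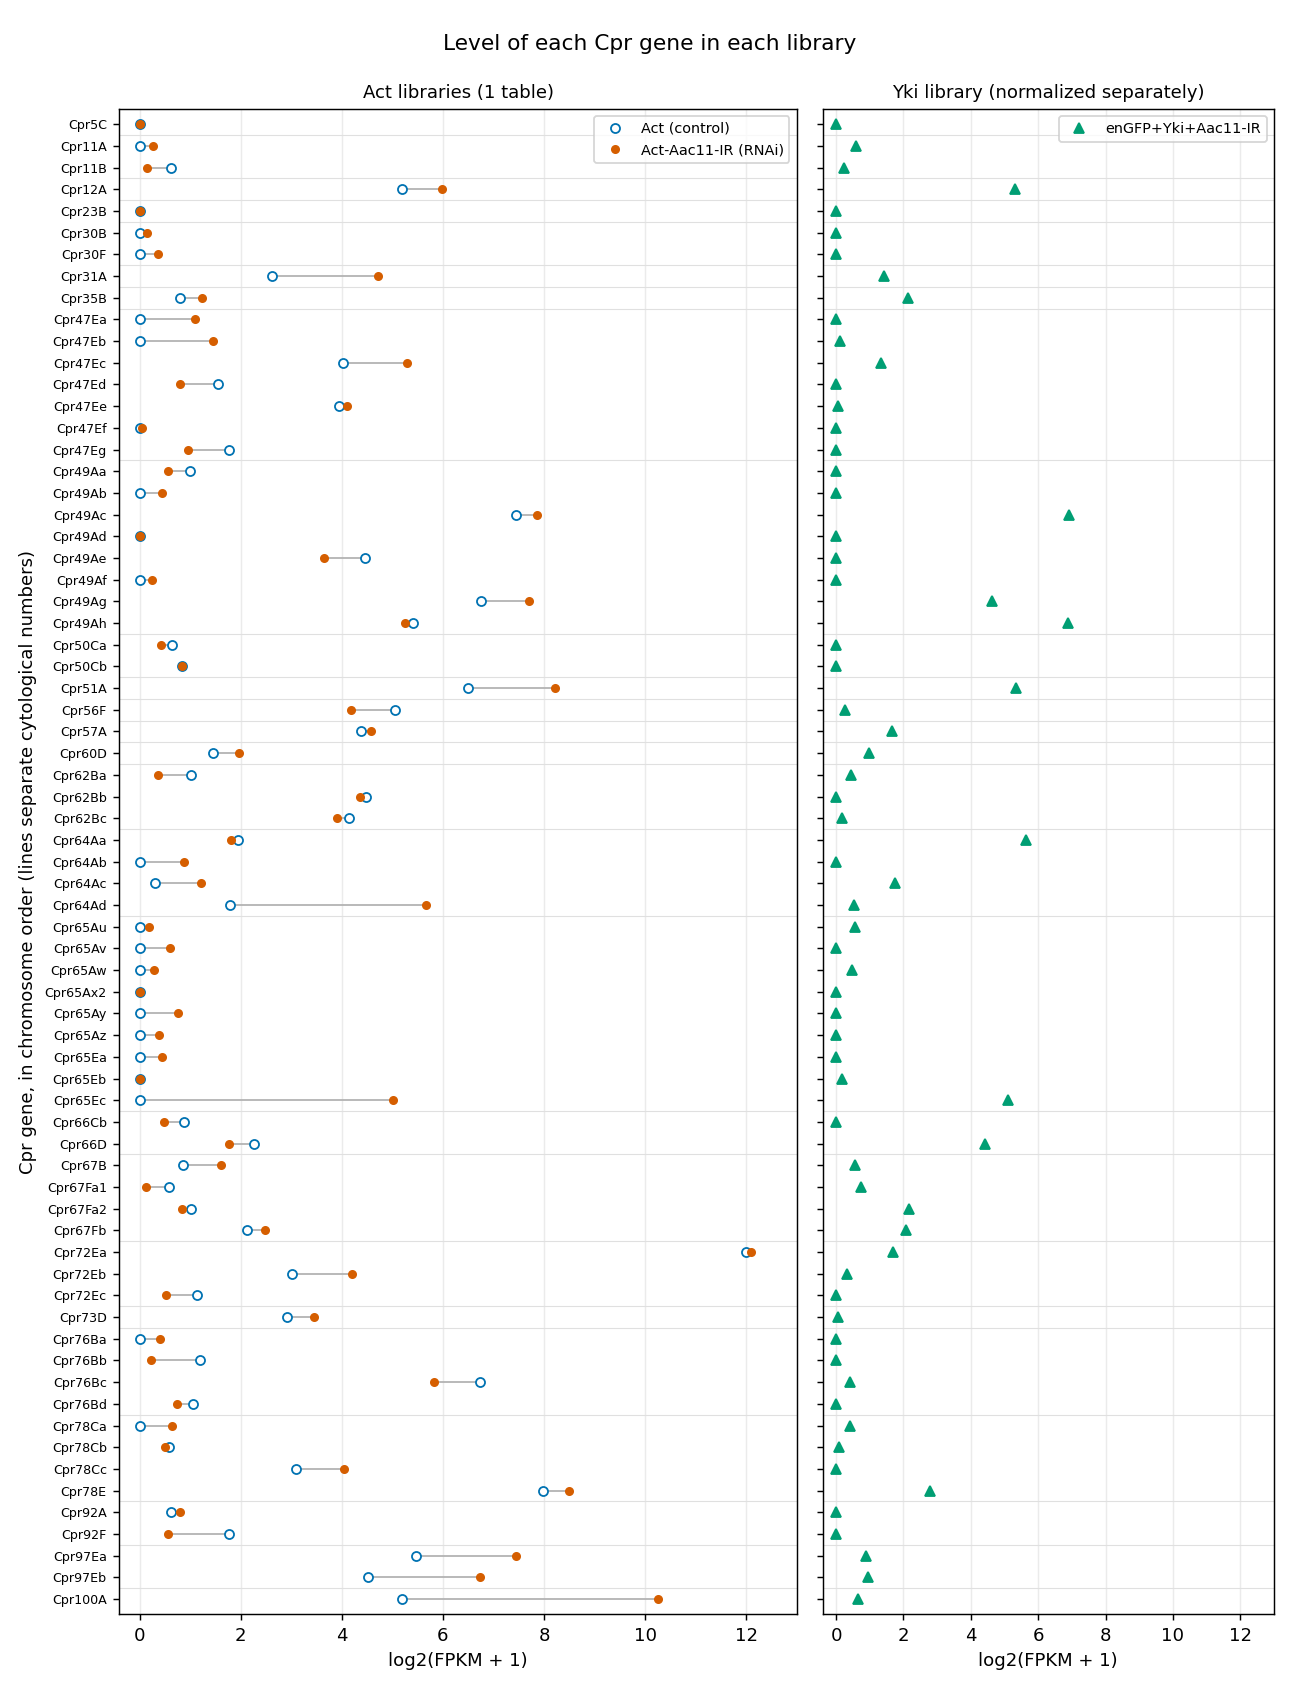
Level of each of the 69 Cpr genes, as log2(FPKM + 1) on the horizontal axis, with genes in chromosome order. The left panel joins the control (open circle) and RNAi (filled circle) values, and the right panel shows the separately normalized Yki library (triangles). Cpr72Ea stands highest in both Act libraries, and the longest joins belong to Cpr100A, Cpr65Ec and Cpr64Ad.

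Cpr72Ea was by far the most abundant member in both Act libraries. It encodes a protein of 341 residues from a single exon (3L, 16362603 to 16363750, plus strand). Its level was 4075 FPKM in the control, 4355 FPKM under RNAi and 2.26 FPKM in the Yki library. It ranked 16 among the 13990 genes of the control and 13 in the RNAi library, compared with 7253 in the Yki library. Its log2 ratio of RNAi to control was 0.10, with a counting interval of 0.08 to 0.12 (0.33 with upper quartiles set equal). Its Act values lie close together, and its Yki value far below both.

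Because of this gene, family sums say little about the other members. The 69 genes summed to 5179 FPKM in the control, 7429 FPKM under RNAi and 474 FPKM in the Yki library. Cpr72Ea made up 78.7% of that sum in Act and 58.6% in Act-Aac11-IR, but 0.476% with Yki. Without it the Act sum was 1103 FPKM and the Act-Aac11-IR sum 3074 FPKM, 2.79 times as much. Cpr100A alone made up 0.683% and 16.5% of the family sum in these libraries, and without it and Cpr72Ea the ratio of sums was 1.73.

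**Figure D2:**
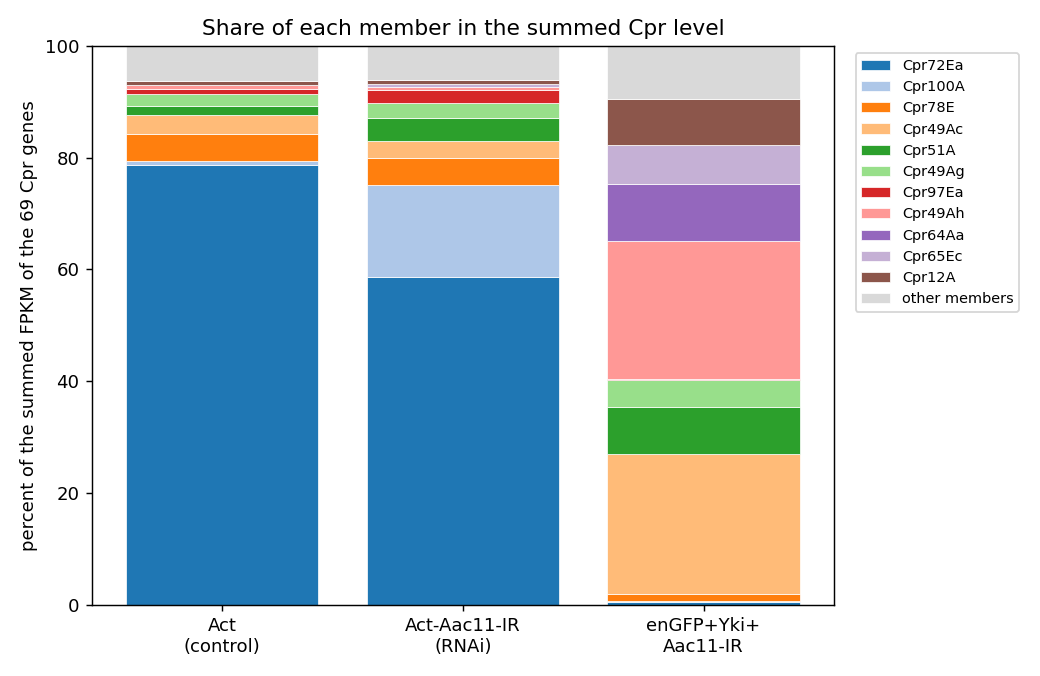
Percent of the summed FPKM of the 69 Cpr genes contributed by each of 11 members and by the other members together, for each library. Cpr72Ea fills 78.7% of the control bar and 58.6% of the RNAi bar, Cpr100A fills 16.5% of the RNAi bar, and Cpr49Ac (25.2%) and Cpr49Ah (24.6%) lead the Yki bar.

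The RNAi library held more RNA of a small set of Cpr genes than the control. A gene was counted as higher or lower when log2 of (FPKM + 1) differed by at least 1, a 2-fold difference on that scale. All members were counted without a filter on low values. Log2 ratios include this pseudocount of 1 FPKM unless stated, and counting intervals belong to ratios without it. Of 69 members 11 were higher and 1 was lower, and 57 lay between. Over all 13990 genes 3.31% were higher and 13.9% lower, compared with 15.9% and 1.45% of the members. A gene under 1 FPKM in the control cannot be counted as lower on this scale. That held for 23 members at 0 and 10 under 1 FPKM, so the lower shares are not like for like. At a mean of at least 10 FPKM over the Act libraries, 0 of 23 members were lower, beside 17.5% of 8206 genes. There 9 members and 2.80% of genes were higher, but a high RNAi value alone can lift a gene over that mean. The median log2 ratio was 0.20 for the family and 0.00 for all genes. Cpr transcripts are short, and among 2659 other genes in the middle range of member transcript length 3.16% were higher and 23.6% lower, with a median of -0.19. These figures describe 1 pair of libraries, in which a change in the cells that make a transcript and a change in RNA per cell cannot be told apart.

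**Figure D3:**
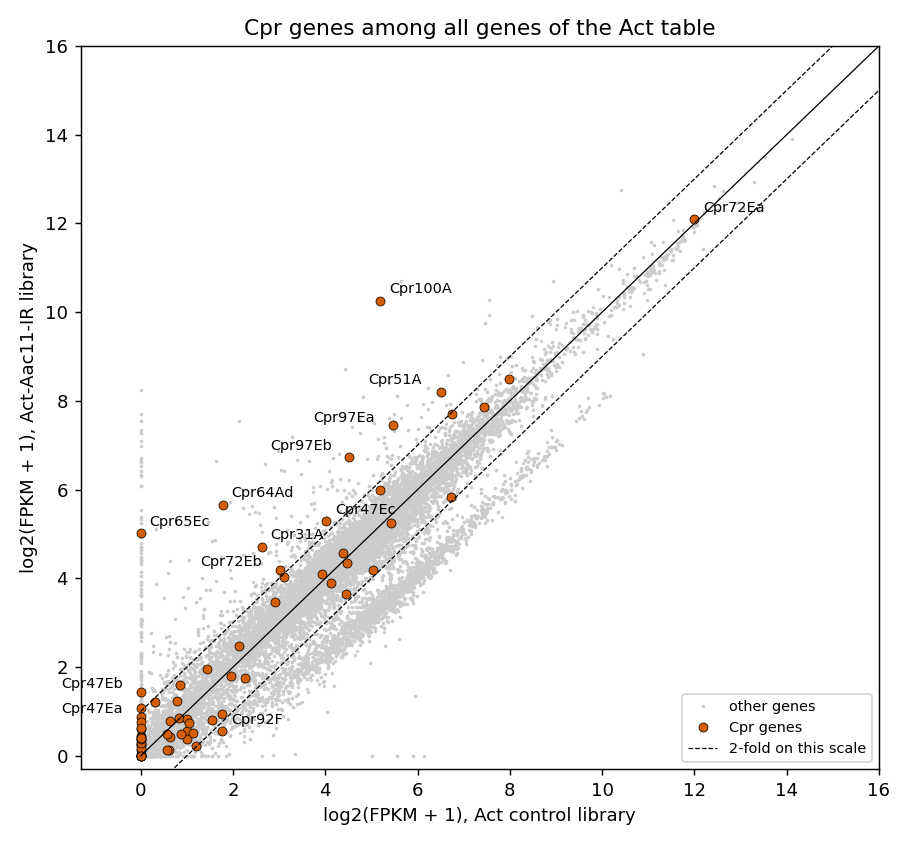
Log2(FPKM + 1) in the RNAi library against the control, for the 69 Cpr genes (filled circles) and all other genes (grey). The solid line marks equal levels and the dashed lines 2-fold. The 11 members counted as higher lie above the upper dashed line, and Cpr92F lies below the lower one.

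Cpr100A had the largest log2 ratio of the members above 0 in both Act libraries. Cpr65Ec, listed at 0 in the control, came close to it at 5.02 and exceeded it with sums set equal (5.27 against 5.22) or a pseudocount of 0.1 FPKM (8.3 against 5.11). Cpr100A (FBgn0039805 by its annotation, 3R, 30867521 to 30869184, plus strand) measured 35.4 FPKM in the control, 1224 FPKM under RNAi and 0.574 FPKM in the Yki library. Its RNAi value lies far above the other Act value, which itself exceeds the control median of all genes, and its Yki value is under 1 FPKM. About 251 and 45080 fragments lay behind the Act values, which differ 34.6-fold. The log2 ratio was 5.07 with the pseudocount, and without it the 95% counting interval ran from 4.94 to 5.30. Its rank among all genes went from 4054 to 123.

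Cpr64Ad (3L, 4215379 to 4216414, plus strand) measured 2.43 FPKM in the control, 49.6 FPKM under RNAi and 0.452 FPKM in the Yki library. The control value rests on about 11 fragments and the RNAi value on 1180, so the 20.4-fold difference carries a wide counting interval of 3.53 to 5.38 on the log2 scale. Its RNAi value lies far above its control and Yki values.

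Cpr97Ea and Cpr97Eb, neighbours on the minus strand of 3R within 8001 nt, were both higher. Cpr97Ea measured 43.3 FPKM in the control, 174 FPKM under RNAi and 0.858 FPKM in the Yki library. Cpr97Eb measured 21.9, 106 and 0.927 FPKM in the same order. Both differed about equally, with log2 ratios of 1.98 and 2.22. Without the pseudocount the log2 ratio of Cpr97Eb was 2.27, with an interval of 2.0 to 2.55. Cpr97Ea has 2 annotated transcripts, so no fragment number was read back for it.

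Cpr51A and Cpr31A, single members of their cytological numbers, were higher as well and were also detected in the Yki library. Cpr51A measured 89.5 FPKM in the control, 295 FPKM under RNAi and 39.4 FPKM in the Yki library, with a log2 ratio of 1.71. Without the pseudocount it was 1.72, with an interval of 1.54 to 1.92. Cpr31A measured 5.16, 25.3 and 1.70 FPKM in these libraries, with a log2 ratio of 2.09. Without the pseudocount it was 2.29, with an interval of 1.78 to 2.85. The lower bound of both intervals exceeds 2-fold.

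Smaller differences were seen for Cpr47Ec and Cpr72Eb. Cpr47Ec measured 15.3 FPKM in the control, 38.0 FPKM under RNAi and 1.53 FPKM in the Yki library, with a log2 ratio of 1.26. Cpr72Eb measured 7.06, 17.3 and 0.253 FPKM, with a log2 ratio of 1.19. Without the pseudocount their log2 ratios were 1.31 and 1.30, with counting intervals of 0.90 to 1.76 and 0.71 to 1.93 that include 2-fold. With a pseudocount of 5 FPKM the log2 ratio of Cpr72Eb was 0.89.

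The remaining higher members were listed at 0 in the control, which in a file without counts can also be a failed estimate. No fold without a pseudocount was formed for them, and their log2 ratios rest on the pseudocount. The other 8 higher members had at least 1 FPKM in the control. Cpr65Ec (3L, 7093204 to 7093841, plus strand) measured 31.4 FPKM under RNAi and 33.1 FPKM in the Yki library, on about 359 and 214 fragments. In the control 3 fragments of this gene would have given 1.36 FPKM. Cpr65Ec therefore stood apart from Cpr100A, whose Yki level was near 0. Cpr47Eb measured 1.73 FPKM under RNAi and 0.0927 FPKM in the Yki library, and 3 control fragments would have given 0.807 FPKM. Cpr47Ea measured 1.13 FPKM under RNAi and was listed at 0 in the Yki library, beside a 3-fragment level of 0.791 FPKM in the control. The log2 ratios of Cpr47Ea and Cpr47Eb, 1.09 and 1.45, were 0.29 and 0.43 with a pseudocount of 5 FPKM.

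A set of 18 members were listed at 0 in the control and above 0 in the RNAi library. Of the 14 among them with 1 transcript, 11 had an RNAi level under what 3 control fragments would have given, and Cpr47Ea, Cpr47Eb and Cpr65Ec lay over it. For instance, Cpr64Ab measured 0.84 FPKM in the RNAi library, where 3 control fragments would have been 1.41 FPKM. For these 11 genes a difference was not detectable at the depth of the control. The other 4 have more than 1 annotated transcript, so no such level was computed for them.

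Cpr92F was the 1 member counted as lower. It measured 2.39 FPKM in the control, 0.481 FPKM under RNAi and was listed at 0 in the Yki library. About 24 and 25 fragments lay behind the Act values, and the log2 ratio was -1.20 with the pseudocount. Without the pseudocount it was -2.32, with an interval of -3.18 to -1.44. With a pseudocount of 5 FPKM it was -0.43, so its call rests on the treatment of low values.

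Several better-expressed members had lower values in the RNAi library without reaching 2-fold. Cpr76Bc, with a protein of 424 residues, measured 105 FPKM in the control, 55.8 FPKM under RNAi and 0.342 FPKM in the Yki library, a log2 ratio of -0.90. Cpr56F measured 32.0, 17.2 and 0.211 FPKM, a log2 ratio of -0.85. Cpr49Ae measured 20.9 and 11.6 FPKM in the Act libraries and was listed at 0 in the Yki library, a log2 ratio of -0.80. The intervals of Cpr56F (-1.12 to -0.65) and Cpr49Ae (-1.15 to -0.55) lie below 0. At lower levels, Cpr66D, a corneal lens component, measured 3.82 and 2.40 FPKM, with an interval of -1.40 to 0.10 that includes 0. Cpr72Ec, the other lens component, measured 1.20 and 0.439 FPKM on about 9 and 17 fragments. Its log2 ratio was -0.62 with the pseudocount. Without it the ratio was -1.46, past 2-fold, with an interval of -2.70 to -0.11.

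**Figure D4:**
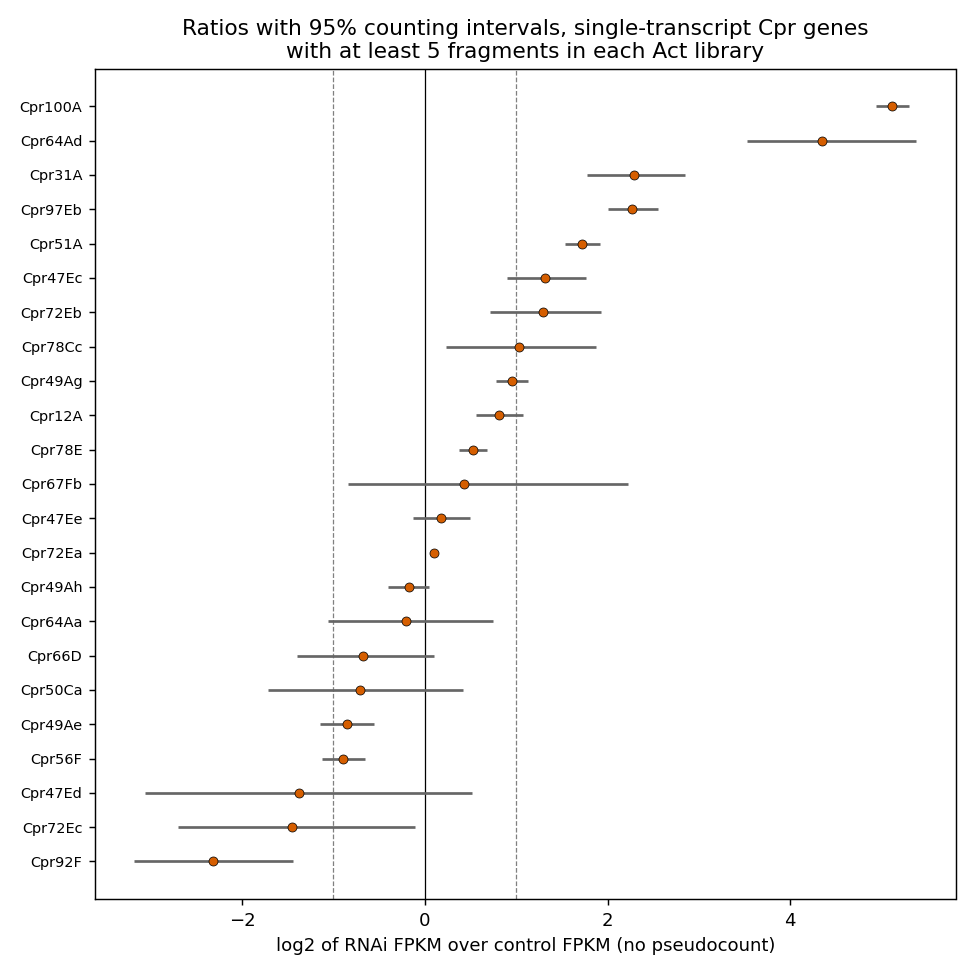
Log2 of the RNAi over the control FPKM, without a pseudocount, for the 23 Cpr genes with 1 annotated transcript and at least 5 fragments in each Act library. Points are the ratios, bars the exact binomial 95% intervals for counting error only, and dashed lines 2-fold. The intervals of 12 genes lie above 0, those of 4 lie below 0, and those of 7 include 0.

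For most members with enough fragments the counting interval of the Act ratio left out 0, at the FPKM values as deposited. Of 23 members with such an interval, 12 lay wholly above 0, 4 wholly below and 7 included 0. The 12 ran from Cpr72Ea at 0.08 to 0.12 up to Cpr100A. They also included Cpr78E at 251 and 361 FPKM (0.37 to 0.68), Cpr12A at 35.6 and 62.5 FPKM (0.56 to 1.08), and Cpr49Ag at 107 and 207 FPKM (0.78 to 1.13). With the pseudocount, Cpr49Ag, at a log2 ratio of 0.95, and Cpr78Cc, at 0.94, lay just under the 2-fold line. Cpr47Ea, at 1.09, lay just over it. On that scale Cpr49Ag and Cpr78Cc crossed the line when library sums or upper quartiles were set equal. Without the pseudocount Cpr78Cc was at 1.03, over the line. These intervals hold no variation between animals or libraries, and none from scaling. Setting medians, sums or upper quartiles equal would raise each log2 ratio without a pseudocount by 0.058, 0.138 or 0.237. The interval of Cpr72Ec ends at -0.11, so with sums or upper quartiles set equal it would include 0. No such split is given over all genes, so these counts are not read as a trait of the family.

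Within some cytological numbers neighbouring members had ratios of both signs, while both genes of number 97 were higher and all 3 of number 62 had negative ratios. At the FPKM values as deposited, counting intervals on both sides of 0 occurred only in numbers 49 and 72. Cytological number 47 holds 7 genes within 26695 nt of 2R, from 11251751 to 11278445. The first 3 of them in order, Cpr47Ea, Cpr47Eb and Cpr47Ec, were the higher ones, and Cpr47Eg and Cpr47Ed had log2 ratios of -0.82 and -0.75. Those negative ratios are not separated from 0 at this depth. Cpr47Ed rests on about 5 and 10 fragments, and without the pseudocount its log2 ratio was -1.37, with an interval of -3.06 to 0.52. Cpr47Eg rests on about 3 and 6 fragments, too few for an interval. Cpr47Ee, between these, measured 14.4 and 16.2 FPKM. Cpr47Ef, a 16-exon gene, was listed at 0 and measured 0.0333 FPKM.

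The 8 genes of number 49, within 38545 nt of 2R, had a wide range of levels and none past 2-fold with the pseudocount. Cpr49Ac measured 174 FPKM in the control, 230 FPKM under RNAi and 119 FPKM in the Yki library. Cpr49Ag measured 107, 207 and 23.7 FPKM, and Cpr49Ah 41.7, 37.0 and 116 FPKM. The log2 ratio of Cpr49Ah, -0.17, turned to 0.06 with upper quartiles set equal. Beside these, Cpr49Ad was listed at 0 in all 3 libraries and Cpr49Ab and Cpr49Af stayed under 1 FPKM. Abundant and silent members thus lay next to each other in both Act libraries.

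Number 72 gave the same picture in 4738 nt of 3L. Its 3 single-exon genes measured 4075 FPKM (Cpr72Ea), 7.06 FPKM (Cpr72Eb) and 1.20 FPKM (Cpr72Ec) in the control. In the RNAi library they measured 4355, 17.3 and 0.439 FPKM, so their log2 ratios were 0.10, 1.19 and -0.62.

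Number 64 holds 4 genes within 8577 nt of 3L. Cpr64Ad, on the plus strand, was the 1 higher member, and the other 3 lie on the minus strand. Cpr64Aa measured 2.86 and 2.48 FPKM in the Act libraries and 48.9 FPKM in the Yki library. Cpr64Ac measured 0.242, 1.31 and 2.39 FPKM, on about 1 control fragment. Cpr64Aa and Cpr64Ad were therefore high in different libraries.

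All 9 genes of number 65 were listed at 0 in the control. They fall into a group of 6 at 65A, between 6131242 and 6161589 on 3L, and a group of 3 at 65E, between 7086003 and 7093841. In the RNAi library the 65A genes measured between 0 (Cpr65Ax2) and 0.695 FPKM (Cpr65Ay). Within 65E, Cpr65Ec measured 31.4 FPKM, Cpr65Ea 0.349 FPKM and Cpr65Eb was listed at 0.

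The genes of number 76 were mostly on the lower side. Of 4 members, Cpr76Bb, Cpr76Bc and Cpr76Bd had log2 ratios of -0.97, -0.90 and -0.31, and Cpr76Ba, listed at 0 in the control and at 0.315 FPKM in the RNAi library, had 0.39. None passed 2-fold. Cpr76Bb measured 1.28 and 0.165 FPKM on under 5 fragments in each library. The 3 genes of number 62 had log2 ratios of -0.64, -0.24 and -0.11, led in level by Cpr62Bb at 21.2 and 19.5 FPKM. With upper quartiles set equal Cpr62Bb had a log2 ratio of 0.11.

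With the pseudocount, numbers 67 and 78 held no member past 2-fold. In number 67 the log2 ratios ran from -0.45 for Cpr67Fa1 to 0.75 for Cpr67B, all at levels under 5 FPKM. In number 78 they ran from -0.08 for Cpr78Cb to 0.94 for Cpr78Cc, which measured 7.58 and 15.5 FPKM. Without the pseudocount the log2 ratio of Cpr78Cc was 1.03. Those of Cpr67Fa1 and Cpr67B were then -2.37 and 1.33, on about 1 and 4 control fragments. Cpr78E was the abundant gene of this number, at 251 FPKM in the control, 361 FPKM under RNAi and 5.87 FPKM in the Yki library. The 17 numbers with 1 or 2 members held 5 of the 11 higher genes and Cpr92F.

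Members standing alone or in pairs ran from 0 to 89.5 FPKM (Cpr51A) in the control and to 1224 FPKM (Cpr100A) under RNAi. They stayed below Cpr72Ea in both Act libraries. On the X chromosome, Cpr12A measured 35.6 FPKM in the control, 62.5 FPKM under RNAi and 38.6 FPKM in the Yki library, a log2 ratio of 0.79. Cpr5C was listed at 0, and Cpr11A and Cpr11B stayed under 1 FPKM in all 3 libraries. On 2L, Cpr31A was the 1 well-expressed gene. Cpr35B measured 0.738, 1.35 and 3.40 FPKM, Cpr30B and Cpr30F stayed under 1 FPKM, and Cpr23B was listed at 0.

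The pair of number 50, Cpr50Ca and Cpr50Cb, stayed under 1 FPKM in the Act libraries and was at 0 in the Yki table. Cpr57A measured 19.8 and 22.9 FPKM in the Act libraries and 2.15 FPKM in the Yki library. Cpr73D, whose protein has 597 residues, measured 6.56, 9.995 and 0.0324 FPKM. Cpr60D, which encodes the shortest protein of the family, measured 1.73, 2.89 and 0.982 FPKM. None of these reached 2-fold. Cpr92A, which shares its number with Cpr92F and lies on the same arm within a span of 1075320 nt, measured 0.544 and 0.735 FPKM on about 3 and 21 fragments.

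**Figure D5:**
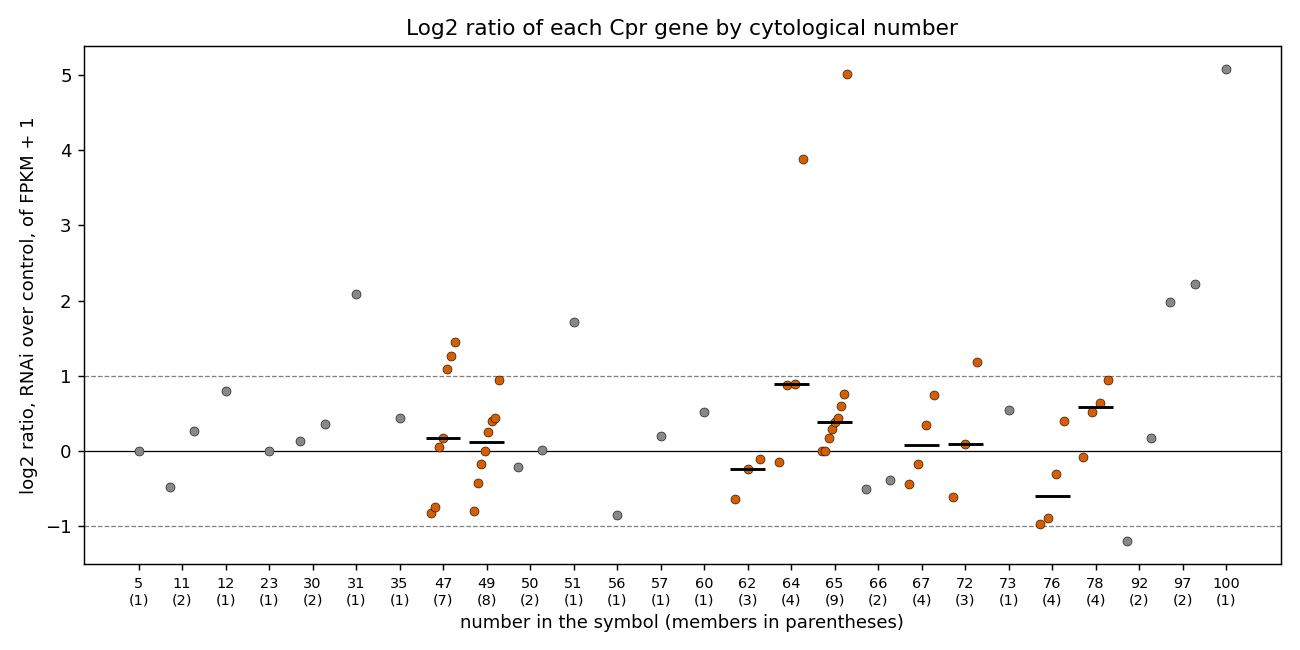
Log2 ratio of FPKM + 1, RNAi over control, of each Cpr gene by the cytological number in its symbol, with the number of members in parentheses. Bars are medians of numbers with 3 or more members (orange), and dashed lines mark 2-fold. Medians run from -0.60 for number 76 to 0.89 for number 64. Among these, numbers 47, 49, 64, 67, 72, 76 and 78 have members on both sides of 0, but only 49 and 72 have counting intervals on both sides.

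The Yki library had another set of leading members. Because it was normalized separately, its levels are given on their own and no ratio to the Act libraries was formed. Of 69 members 17 reached 1 FPKM and 9 reached 5 FPKM. No share of all genes at these levels is given, and the all-gene median there was 3.52 FPKM, beside 0.121 FPKM for the family. The 8 highest were Cpr49Ac (119 FPKM), Cpr49Ah (116 FPKM), Cpr64Aa (48.9 FPKM), Cpr51A (39.4 FPKM), Cpr12A (38.6 FPKM), Cpr65Ec (33.1 FPKM), Cpr49Ag (23.7 FPKM) and Cpr66D (20.3 FPKM). Together they made up 92.7% of the family sum in that library. Each gene that reached 1 FPKM there also reached 1 FPKM in at least 1 Act library.

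By rank among all genes, Cpr49Ac stood high in every library, at 748 in Act, 460 in Act-Aac11-IR and 888 with Yki. Cpr49Ah ranked 3496, 3338 and 911, Cpr64Aa 10210, 10348 and 2321, and Cpr66D 9883, 10394 and 4667. The last 3 thus ranked higher in the Yki library than in both Act libraries. Cpr65Ec ranked 3840 under RNAi and 3362 with Yki. Of 23 members with at least 10 FPKM in either Act library, 12 were under 1 FPKM in the Yki library, among them Cpr100A, Cpr97Ea, Cpr97Eb, Cpr76Bc and Cpr64Ad. Of the 11 higher members 4 reached 1 FPKM in the Yki library, namely Cpr31A, Cpr47Ec, Cpr51A and Cpr65Ec. No share of all genes stands beside these counts, so they are not read as a trait of the family. At a mean of at least 10 FPKM over the Act libraries, the Yki median was 0.927 FPKM for 23 members and 23.9 FPKM for 8206 genes. In this library tissue content, which differed for the marker lists above, cannot be told apart from genotype.

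Other genes of cuticle formation had more members on the higher than on the lower side in the RNAi library. Of 63 other cuticle structural genes (Lcp, Ccp84A, Edg, Twdl, obst and related symbols) 20 were higher and 3 lower, with a median log2 ratio of 0.28. These are 31.7% and 4.76% of that list, beside 3.31% and 13.9% of all genes. The 3 largest differences were those of Edg84A, listed at 0 and then at 23.8 FPKM, Ccp84Ag, at 0.555 and 19.9 FPKM, and Ccp84Ab, at 0.263 and 13.6 FPKM. Chitin synthesis and turnover genes had 8 of 28 higher (28.6%) and 1 lower (3.57%), with a median of 0.35. They were led by the chitinase gene Cht4, at 2.08 and 27.95 FPKM, and the chitin deacetylase gene serp, at 8.51 and 41.3 FPKM. Of 22 tanning and pigment genes 3 were higher (13.6%) and 1 lower (4.55%), with a median of 0.09. The tyrosine hydroxylase gene ple, which starts catecholamine synthesis for tanning, measured 1.05 and 12.8 FPKM.

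Among 25 ecdysone response and moulting regulators 3 were higher and 0 lower, with a median of 0.41, beside 3.31% and 13.9% of all genes and an all-gene median of 0.00. ImpL3, which encodes lactate dehydrogenase and was named as an ecdysone-inducible gene, measured 11.1 and 41.2 FPKM, a log2 ratio of 1.80. The pupal specifier br measured 6.64 and 23.4 FPKM, and Eip93F, an ecdysone-induced regulator of metamorphosis, 36.5 and 77.4 FPKM. The part of developmental timing in the Cpr values was not tested.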

How the data were processed

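RNA libraries were made from 4 µg of rRNA-depleted RNA with a TruSeq v2 kit, per the labels' protocols. The authors deposited FPKM values in 2 separately normalized tables. CASAVA 1.4, TopHat2 2.0.12, Cuffdiff 2.2.1 and dm6 are named, without roles, per the submitters' processing notes. No annotation, strand setting or scaling is given in the sources used here, so overlapping and antisense genes cannot be told apart.

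Log2 ratios used a pseudocount of 1 FPKM, which understates changes of low genes, and no filter; a mean of 1 FPKM over the Act libraries would keep 33 members. Depth was fitted from FPKM steps of single-transcript genes longer than 600 nt, with an effective length for fragments of 200 ± 80 nt. Within 0.1 of a whole fragment lay 70.2%, 69.1% and 77.7% of low values (control, RNAi, Yki), but 14 of 29 low member values, so member fragment numbers are approximate. Exact binomial (Clopper-Pearson) 95% intervals belong to ratios without the pseudocount, need 5 fragments in each library and cover counting error only. The procedure was tested on simulated data. All 69 members matched the Ensembl 115 annotation (BDGP6.54), and 99.5% of all genes had a transcript length, found by symbol or RefSeq synonym.

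Named members were the 2 markers, up to 14 largest and 10 smallest ratios past 2-fold, the 8 highest per library, those at 0 in 1 Act library and 1 FPKM or more in the other, and both ends of each number with 3 or more members. Members named outside this rule were chosen after their values were seen. The members and lists were chosen with earlier results of these data known. Sequences were not used here. Python 3.11.15, numpy 2.4.6, pandas 2.3.3, scipy 1.17.1 and matplotlib 3.10.9 were used.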

Additional observations from a re-analysis of the deposited data

How the results depend on the processing

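The 2-fold counts of higher and lower members were 11 and 1. With a pseudocount of 0.1 FPKM they were 27 and 8, since genes on few fragments then pass, and with 5 FPKM there were 8 higher and 0 lower. A mean of at least 5 FPKM over the Act libraries also left 0 lower. The other alternatives gave 9 to 15 higher members and 1 lower. The family median of 0.20 was 0.42 with a pseudocount of 0.1 FPKM, 0.063 with 5 FPKM, 0.44 and 0.67 with means of at least 1 and 5 FPKM, and 0.33 with upper quartiles set equal. In alternatives chosen after seeing the data it was 0.35 over members with 1 annotated transcript and 0.34 after genes were centred on the median of their transcript length bin, 1 of 10. Setting upper quartiles equal moved the median of all genes by 0.13, so the family stood 0.20 above it in both cases. Over all genes the count of higher genes was 463, and it was 1045 and 245 with pseudocounts of 0.1 and 5 FPKM, 292 with a mean of at least 5 FPKM and 717 with upper quartiles set equal. The count of lower genes was 1943 of 13990, and it was 2343 and 1486 with pseudocounts of 0.1 and 5 FPKM. How few members were lower beside all genes thus depends on the pseudocount, with 1 of 69 in the main setting and 8 at 0.1 FPKM. In the Yki library 17 members reached 1 FPKM and 9 reached 5 FPKM. Among 198 alternative values of named members, 72 belonged to members past 2-fold in the main setting, and 4 of these fell under it. Another 17 values passed 2-fold for members not past it in the main setting. Leaving out near-identical copies by protein identity was not run, because no protein sequences were used here. Depth limits the control most. No paired analysis was possible because each genotype has 1 library, and no library could be left out.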
